A study of Mus musculus with 6 samples.

Results

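The genes described here are 33 genes of cholesterol synthesis, intracellular transport, efflux and oxysterol formation, chosen by name for their place in the pathway. The choice was made with earlier results of these data known. All 33 had values in the deposited gene table, out of 17189 genes with values, and all 33 passed the filter on low counts. RNA-seq libraries came from primary articular chondrocytes, the cells of joint cartilage that secrete its matrix, of wild-type mice. The 6 libraries were 2 from control cells, 2 from cells under the condition labelled aging SNL, and 2 from cells under aging SNL together with spesolimab, a therapeutic antibody directed at the IL-36 receptor (called the spesolimab libraries below). The series title places them in a study of aged skin, experimental osteoarthritis and IL-36 receptor signalling. No source used here gave the age and number of the animals, any pooling, the dose of antibody or the meaning of SNL. Nothing in the labels says that the 2 libraries of a group came from separate cultures or animals, so p-values reflect no more than the spread among these libraries, and that spread may be technical.

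Cells build cholesterol from acetyl-CoA through the mevalonate pathway, which leads by way of farnesyl diphosphate and squalene to lanosterol and then, by removal of methyl groups and shifts of double bonds, to cholesterol. When membrane sterol is low, the escort protein SCAP carries the SREBP factors from the endoplasmic reticulum to the Golgi, where they are cut and freed to switch on most genes of synthesis and uptake. INSIG proteins hold SCAP back when sterol is plentiful. In the other direction, oxysterols activate the LXR nuclear receptors, which raise the export pumps ABCA1 and ABCG1. In mouse cartilage the pair Ch25h and Cyp7b1, which make and further hydroxylate 25-hydroxycholesterol, has been studied in experimental osteoarthritis together with the nuclear receptor gene Rora.

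Library totals lay between 16566791 and 17312833 counts. Aging SNL replicate 1 stood apart, at 67.9 on the first principal component against -18.8 to -6.46 for the other 5 libraries. The 15 chondrocyte markers were all detected in every group, but their summed level was 15197 depth-scaled counts (CPM, on TMM-scaled library sizes) in aging SNL replicate 1 and 70342 to 87135 CPM elsewhere. Col2a1 was the largest part, at 7683 CPM in aging SNL replicate 1 and 41780 to 48718 CPM elsewhere. Chad was not lower in that library, at 5.71 CPM against 3.77 and 4.65 CPM (control). The 13 macrophage markers were low, and their sums differed by replicate number. They were 123, 159 and 166 CPM in replicate 1 of control, aging SNL and spesolimab and 27.8, 43.7 and 41.2 CPM in replicate 2. Lyz2 was the largest part, at 70.6, 78.3 and 97.4 CPM in replicate 1 and 13.6, 22.8 and 19.8 CPM in replicate 2. In aging SNL, C1qa, C1qb and C1qc went the other way, at 0.62 to 0.96 CPM. The 4 keratinocyte markers with values summed to 3.27 to 4.65 CPM, nearly all of it Krt10 at 3.04 to 4.59 CPM. Of the others, Krt1 reached at most 5 counts in a library, and Krt5 and Krt14 at most 2 counts, with 0 in both controls. Results on aging SNL are therefore also given with either of its libraries left out where that changes a call. In such a fit the 1 remaining aging SNL library is assumed to vary like the other groups. The aging SNL replicates varied more, with 13.9% of all genes over 2-fold apart, against 2.11% (control) and 2.6% (spesolimab). The p-values of such fits are therefore likely too small, and a gene said to rise there does so in that 1 library.

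The first comparison set aging SNL against control, to see how sterol genes stood under that condition. Most of the pathway was modestly higher in both aging SNL libraries: for 24 of the 33 genes both libraries lay above both controls, 72.7% of the members, where 20.9% of all tested genes did. Both lay below both controls for 0 members, against 21.1% of all genes. This measure was added after the data were seen, so the contrast is a description and not a test. Of the 24 genes, 14 came from the 18 synthesis enzymes, 3 from the 5 SREBP regulators, 3 from the 3 transport genes and 3 from the 4 efflux and LXR genes. The last was Acly, which was nearly level. With library totals unscaled the 24 became 22, without Nsdhl and Acly, where 15.1% of all genes lay above and 26.8% below. The median log2 fold change of the members was 0.36 (quartiles 0.26 and 0.50), and that of all tested genes was 0.01. Together the 33 genes took 0.192% and 0.189% of control counts, 0.249% and 0.224% of aging SNL counts and 0.207% and 0.217% of spesolimab counts. In bulk RNA, a change in the share of cells of one kind and a change of RNA per cell cannot be told apart.

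In edgeR and limma none of these differences passed the test over all genes, and in DESeq2 2 did. In the 6 libraries edgeR called 0 of 33 members, with a background of 0% of all genes called higher and 0% called lower at an adjusted p of 0.05. At an unadjusted p under 0.05, 11 members (33.3%) were higher, where 6.49% of all genes were, and 0 were lower, where 6.15% were. DESeq2 called 2 members higher, Msmo1 (DESeq2 adjusted p = 3.3e-04) and Insig2 (DESeq2 adjusted p = 0.0173). It called 1.69% of all genes higher and 1.63% lower. The fit with limma on TPM called 0 members. On the TPM scale the count of members above control without overlap was 9, not 24, and 3 members (Hmgcs1, Ebp and Acly) lay below, where 6.55% of all genes lay above and 43.0% below. The median of all genes had shifted to -0.22 there (log2(TPM + 1)), and that of the members was 0.08.

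**Figure D1:**
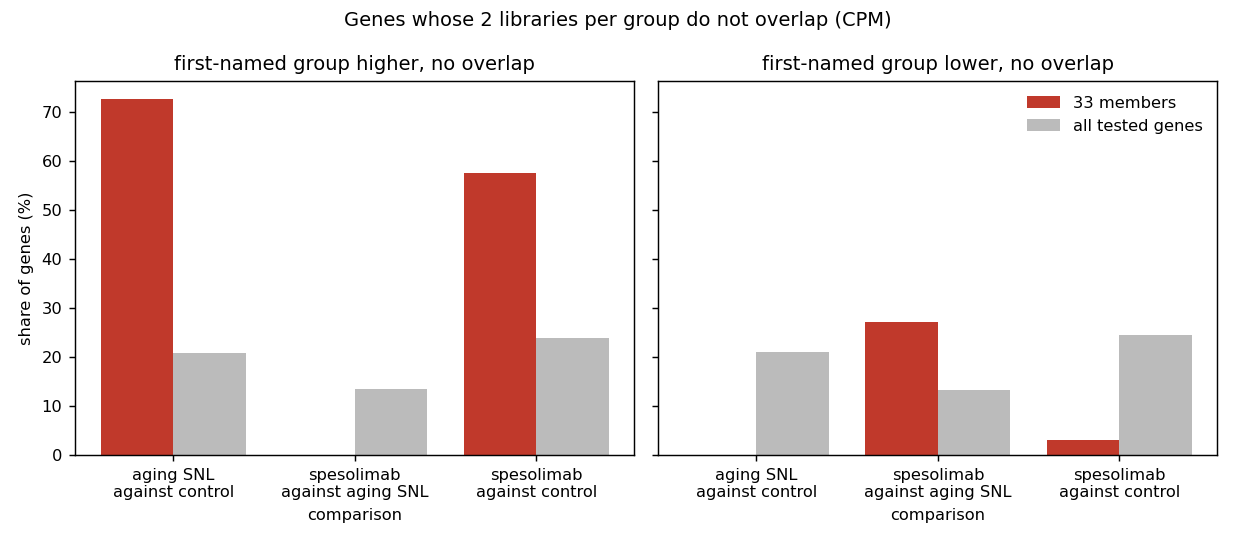
Share of genes, in percent, for which both libraries of the first-named group lay above (left) or below (right) both libraries of the other group on the CPM scale; red bars are the 33 members and grey bars all tested genes. In aging SNL against control the members reach 72.7% higher against 20.9% of all genes, and 0 members lie below.

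The first enzymes of the route make mevalonate and turn it into isoprenoid units. Acat2, the cytosolic thiolase that joins acetyl-CoA, measured 25.1 and 25.6 CPM (control), 31.5 and 28.0 CPM (aging SNL) and 26.9 and 28.4 CPM (spesolimab). Hmgcs1, the HMG-CoA synthase, measured 111 and 105 CPM (control), 100.4 and 112 CPM (aging SNL) and 103 and 121 CPM (spesolimab), and was the 1 member whose fold change in aging SNL was below 0 (log2 fold change -0.03 ± 0.12, SE). Its control and aging SNL libraries overlapped, unlike those of the other 6 genes of this segment. Mvk, the mevalonate kinase, measured 14.4 and 14.5 CPM (control), 16.1 and 19.8 CPM (aging SNL) and 14.5 and 15.9 CPM (spesolimab). Pmvk, which adds the next phosphate, stood at 12.3 and 12.1 CPM, then 15.5 and 16.0 CPM, then 11.9 and 14.2 CPM in the same order of groups. Both aging SNL libraries exceeded every control and every spesolimab library for these kinases. Mvd, the decarboxylase, measured 14.7 and 12.7 CPM (control), 21.4 and 17.2 CPM (aging SNL) and 13.0 and 18.2 CPM (spesolimab). Idi1, the isopentenyl diphosphate isomerase, measured 44.6 and 43.8 CPM (control), 52.6 and 55.7 CPM (aging SNL) and 48.4 and 58.1 CPM (spesolimab). Fdps, which makes farnesyl diphosphate, stood at 38.9 and 40.6 CPM, then 44.9 and 54.8 CPM, then 43.9 and 55.2 CPM. For Idi1 and Fdps the spesolimab libraries, too, lay above both controls and overlapped aging SNL.

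The 3 enzymes that commit the route to sterols were all higher in both aging SNL libraries, and all 3 were also above control in both spesolimab libraries. Fdft1, the squalene synthase, measured 48.0 and 45.6 CPM (control), 64.9 and 58.2 CPM (aging SNL) and 49.6 and 57.8 CPM (spesolimab). The log2 fold change of Fdft1 against control was 0.39 ± 0.12 (edgeR adjusted p = 0.308) in 6 libraries, and with the second aging SNL library left out it rose by 0.47 ± 0.11 (adjusted p = 0.0267). Sqle, the squalene epoxidase that can limit the rate of the sterol branch, measured 52.0 and 52.6 CPM (control), 60.4 and 65.1 CPM (aging SNL) and 55.2 and 65.4 CPM (spesolimab). Lss, the lanosterol synthase, stood at 38.9 and 39.4 CPM, then 47.3 and 54.4 CPM, then 44.7 and 57.7 CPM. In both of these genes the highest spesolimab library exceeded both aging SNL libraries.

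Beyond lanosterol, the demethylation enzyme Msmo1 had the lowest p of all members in each of the 3 comparisons with edgeR on 6 libraries, though not in every other fit. Msmo1, the oxidase that removes the C4 methyl groups, measured 56.7 and 53.4 CPM (control), 103 and 88.5 CPM (aging SNL) and 71.4 and 81.6 CPM (spesolimab). The 3 groups did not overlap, and the ratio of the aging SNL mean to the control mean was 1.74. Against control it differed by 0.80 ± 0.12 on the log2 scale (edgeR adjusted p = 0.165), and it passed when either aging SNL library was left out, at 0.69 ± 0.11 without the first (adjusted p = 0.0281) and 0.90 ± 0.11 without the second (adjusted p = 0.00208). Hsd17b7, a ketoreductase of the same C4 demethylation complex, measured 22.6 and 23.0 CPM (control), 37.0 and 27.0 CPM (aging SNL) and 24.995 and 29.0 CPM (spesolimab), and rose without aging SNL replicate 2 (0.70 ± 0.12, adjusted p = 0.00775). Nsdhl, the dehydrogenase of that complex, stood at 14.4 and 15.8 CPM, then 16.8 and 20.4 CPM, then 15.8 and 17.7 CPM. All 3 genes of the complex were thus above control in both aging SNL libraries, Hsd17b7 mostly in replicate 1 and Nsdhl mostly in replicate 2.

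Tm7sf2, a sterol C14 reductase, had the largest fold change of all members in aging SNL, from a low level of 3.20 and 3.70 CPM (control), with 5.96 and 8.25 CPM (aging SNL) and 5.02 and 6.36 CPM (spesolimab). Its log2 fold change was 1.04 ± 0.26 (edgeR adjusted p = 0.253), and it rose without aging SNL replicate 1 (1.26 ± 0.24, adjusted p = 0.0453), on 56 to 137 counts per library. Cyp51, the C14 demethylase acting just before it, measured 64.9 and 64.9 CPM (control), 76.3 and 79.7 CPM (aging SNL) and 65.5 and 76.4 CPM (spesolimab). The last enzymes showed no such separation. Ebp, a sterol isomerase, measured 19.8 and 17.7 CPM (control), 22.1 and 17.9 CPM (aging SNL) and 19.5 and 17.5 CPM (spesolimab). Sc5d, a sterol desaturase, stood at 65.4 and 51.7 CPM, then 77.7 and 64.3 CPM, then 58.8 and 61.8 CPM. Dhcr7, the reductase that finishes one branch of the route, stood at 18.6 and 17.1 CPM, then 16.3 and 24.2 CPM, then 18.7 and 24.3 CPM. For these 3 genes the control and aging SNL libraries overlapped.

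**Figure D2:**
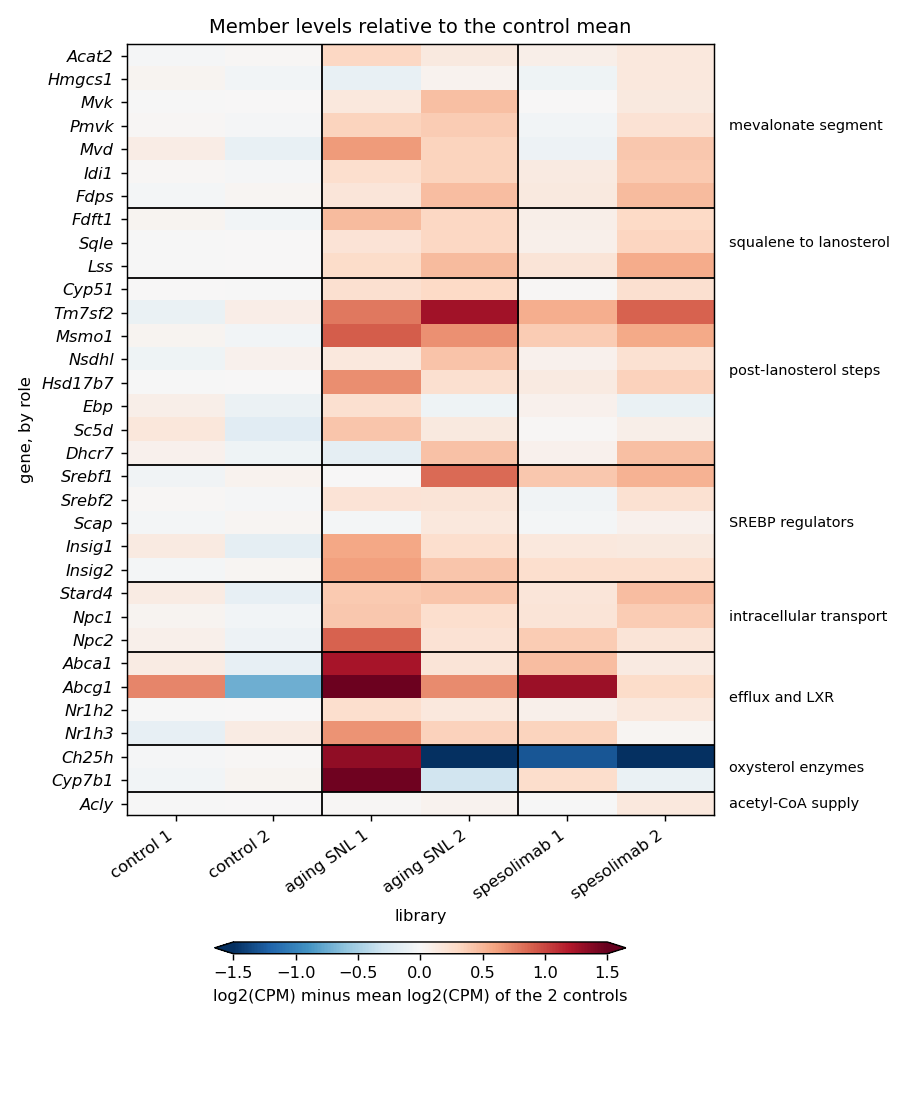
Level of each member (rows, grouped by role) in each library (columns), as log2(CPM) minus the mean log2(CPM) of the 2 controls; the colour scale ends at 1.5 in either direction, and Ch25h runs past it. Most synthesis, regulator and transport genes are red in both aging SNL libraries, while Ch25h and Cyp7b1 are red in aging SNL replicate 1 and blue in replicate 2.

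The promoters of these genes are shown because SREBP acts there, usually together with the factors NF-Y and Sp1. RefSeq promoter sequences (build GRCm38.p6, not the build of the files) were matched for 26 of the 33 members, all but Abcg1, Fdft1, Npc1, Fdps, Cyp7b1, Stard4 and Sqle, and the 250 bases before each start site were searched on both strands. The NF-Y box CCAAT was present in 19 of 26 members (73.1%), in 40.8% of tested genes with a sequence and in 33.8% of all promoter windows. The GC box of Sp1, GGGCGG, was present in 22 members (84.6%), 63.5% of tested genes and 32.7% of windows. The core of the sterol regulatory element, TCACNCCAC, was found in 1 member, Hmgcs1, and in 1.21% of tested genes and 1.05% of windows. The E-box CACGTG was found in 6 members, 9.88% of tested genes and 6.02% of windows, and the LXR direct repeat in 0 members, 0% of tested genes and 0.0152% of windows. Only exact matches were counted, and a match that overlapped another motif counted for each. Member promoters were slightly richer in G and C, with a median of 62.4% against 59.6%. The sequences below show the member with the lowest p in aging SNL with edgeR on 6 libraries (Msmo1), the one with the sterol element (Hmgcs1), a regulator (Insig1) and the oxysterol enzyme whose libraries differed most (Ch25h), with CCAAT or its reverse complement and the sterol element in capitals.
Msmo1, chr8:64733579-64733828, minus strand: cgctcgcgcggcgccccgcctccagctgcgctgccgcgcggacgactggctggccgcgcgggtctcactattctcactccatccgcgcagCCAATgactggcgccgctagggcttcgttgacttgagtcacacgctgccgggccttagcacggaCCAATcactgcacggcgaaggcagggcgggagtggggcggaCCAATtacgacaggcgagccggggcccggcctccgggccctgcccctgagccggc
Hmgcs1, chr13:119690101-119690350, plus strand: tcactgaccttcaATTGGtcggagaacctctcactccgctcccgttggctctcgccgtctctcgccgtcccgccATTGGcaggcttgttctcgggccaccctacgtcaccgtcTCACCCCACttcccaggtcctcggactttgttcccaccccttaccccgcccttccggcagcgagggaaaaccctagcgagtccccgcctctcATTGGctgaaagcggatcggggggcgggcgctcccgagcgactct
Insig1, chr5:28071162-28071411, plus strand: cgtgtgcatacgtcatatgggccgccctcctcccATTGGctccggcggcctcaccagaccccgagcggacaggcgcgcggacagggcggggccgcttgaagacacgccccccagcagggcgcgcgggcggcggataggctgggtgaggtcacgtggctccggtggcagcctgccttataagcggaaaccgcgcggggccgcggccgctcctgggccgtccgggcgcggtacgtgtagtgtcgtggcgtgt
Ch25h, chr19:34475149-34475398, minus strand: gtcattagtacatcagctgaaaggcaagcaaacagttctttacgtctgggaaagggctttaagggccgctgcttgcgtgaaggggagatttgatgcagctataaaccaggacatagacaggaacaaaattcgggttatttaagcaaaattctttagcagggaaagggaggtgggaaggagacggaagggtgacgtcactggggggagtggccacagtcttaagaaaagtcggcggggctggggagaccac
The Msmo1 and Hmgcs1 windows each held 3 NF-Y boxes, Insig1 held 1, and Ch25h held 0. Hmgcs1, the window with the sterol element, was nearly level in aging SNL (log2 fold change -0.03 ± 0.12). Msmo1, without those exact letters, was higher (0.80 ± 0.12). Any relation between motif matches and fold changes was not tested. A match in these letters is a description of the window and not evidence of binding.

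Of the regulators, Insig1, Insig2 and Srebf2 lay above both controls in both aging SNL libraries, and Srebf1 and Scap did not. The difference was smaller for Srebf2 (log2 fold change 0.20 ± 0.12) than for the INSIG genes. Insig2 measured 59.4 and 61.4 CPM (control), 92.7 and 80.3 CPM (aging SNL) and 71.7 and 72.0 CPM (spesolimab). As for Msmo1, the 3 groups were fully separated, with spesolimab between the others. Insig2 had a log2 fold change of 0.52 ± 0.10 in aging SNL (edgeR adjusted p = 0.184) and rose without aging SNL replicate 2 (0.62 ± 0.08, adjusted p = 0.0034). Insig1, an SREBP target that feeds back on the same route, measured 55.1 and 45.9 CPM (control), 75.4 and 59.9 CPM (aging SNL) and 56.1 and 55.7 CPM (spesolimab). It rose without aging SNL replicate 2 (0.58 ± 0.12, adjusted p = 0.0155). Srebf2, the factor that chiefly drives cholesterol genes, measured 109 and 106 CPM (control), 125 and 124 CPM (aging SNL) and 104 and 126 CPM (spesolimab). Scap, the escort protein, differed little, at 58.3 and 61.0 CPM, then 58.3 and 66.6 CPM, then 58.3 and 62.1 CPM.

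Srebf1, the factor more tied to fatty acid synthesis, did not separate by group as the INSIG genes did. It measured 82.8 and 89.3 CPM (control), 86.0 CPM (aging SNL replicate 1), 155 CPM (aging SNL replicate 2) and 113 and 123 CPM (spesolimab). Aging SNL replicate 1 lay within the controls, while the other aging SNL library and both spesolimab libraries lay above them. In 6 libraries Srebf1 in aging SNL differed from control by 0.49 ± 0.28 on the log2 scale (edgeR adjusted p = 0.499), and once the first aging SNL library was left out it was 0.85 ± 0.10 (adjusted p = 0.0132).

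The sterol carriers were higher in both aging SNL libraries. Stard4, a cytosolic sterol transfer protein, measured 47.7 and 40.3 CPM (control), 57.5 and 58.4 CPM (aging SNL) and 49.9 and 60.4 CPM (spesolimab). Npc1, the membrane protein that exports cholesterol from lysosomes, measured 79.6 and 75.5 CPM (control), 102 and 92.2 CPM (aging SNL) and 88.3 and 101 CPM (spesolimab). Its soluble partner Npc2 measured 394 and 353 CPM (control), 688 and 433 CPM (aging SNL) and 487 and 428 CPM (spesolimab). All 3 were above control without overlap in both conditions, and for Npc2 aging SNL replicate 1 was by far the highest library. Without aging SNL replicate 2, edgeR called Npc1 (0.40 ± 0.11, adjusted p = 0.0374) and Npc2 (0.88 ± 0.13, adjusted p = 0.00434) higher in aging SNL.

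The genes of both efflux pumps were higher in replicate 1 than in replicate 2 of every group. Abca1, the pump that loads cholesterol onto apolipoprotein A-I, measured 64.1 and 54.3 CPM (control), 139 CPM (aging SNL replicate 1), 67.3 CPM (aging SNL replicate 2) and 81.5 and 64.7 CPM (spesolimab). It was 1.23 ± 0.15 higher on the log2 scale without aging SNL replicate 2 (edgeR adjusted p = 0.00261) and 0.80 ± 0.35 higher in 6 libraries (adjusted p = 0.423). Abcg1, which exports cholesterol to mature lipoproteins, measured 3.54 and 1.29 CPM (control), 5.90 and 3.49 CPM (aging SNL) and 5.20 and 2.59 CPM (spesolimab), on 23 to 95 counts. The summed macrophage markers given above showed the same order of replicates, and their part in the pump levels was not tested. Of the LXR genes, Nr1h2, which encodes LXR beta, measured 53.3 and 53.8 CPM (control), 63.6 and 59.9 CPM (aging SNL) and 56.3 and 59.7 CPM (spesolimab). Nr1h3, which encodes LXR alpha, was low, at 2.17 and 2.58 CPM, then 3.79 and 3.01 CPM, then 2.98 and 2.41 CPM. Both LXR genes were higher in both aging SNL libraries than in either control.

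The aging SNL libraries of both oxysterol enzymes lay on opposite sides of control, as did those of Hmgcs1 and Dhcr7 by smaller amounts. Ch25h, cholesterol 25-hydroxylase, measured 9.03 and 9.19 CPM (control), 22.9 CPM (aging SNL replicate 1), 3.01 CPM (aging SNL replicate 2) and 3.74 and 1.88 CPM (spesolimab). One aging SNL library was thus above the controls and the other below them, and both spesolimab libraries were below. These levels rest on 158 and 164 counts (control), 368 and 50 counts (aging SNL) and 64 and 32 counts (spesolimab). Cyp7b1, the oxysterol 7-alpha-hydroxylase, measured 19.9 and 21.0 CPM (control), 56.3 CPM (aging SNL replicate 1), 16.7 CPM (aging SNL replicate 2) and 24.6 and 19.1 CPM (spesolimab). Its spesolimab libraries lay on either side of control. In 6 libraries neither gene was called in aging SNL, with log2 fold changes of 0.50 ± 0.87 for Ch25h (edgeR adjusted p = 0.840) and 0.83 ± 0.54 for Cyp7b1 (adjusted p = 0.550). Without aging SNL replicate 2 both rose, Ch25h by 1.32 ± 0.26 (adjusted p = 0.0137) and Cyp7b1 by 1.45 ± 0.15 (adjusted p = 0.00124). Abca1, Ch25h and Cyp7b1 were the 3 members over 2-fold apart between the aging SNL replicates, a distance reached by 13.9% of all genes. Acly, which supplies cytosolic acetyl-CoA from citrate, was nearly level, at 193 and 196 CPM (control), 196 and 202 CPM (aging SNL) and 194 and 217 CPM (spesolimab).

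**Figure D3:**
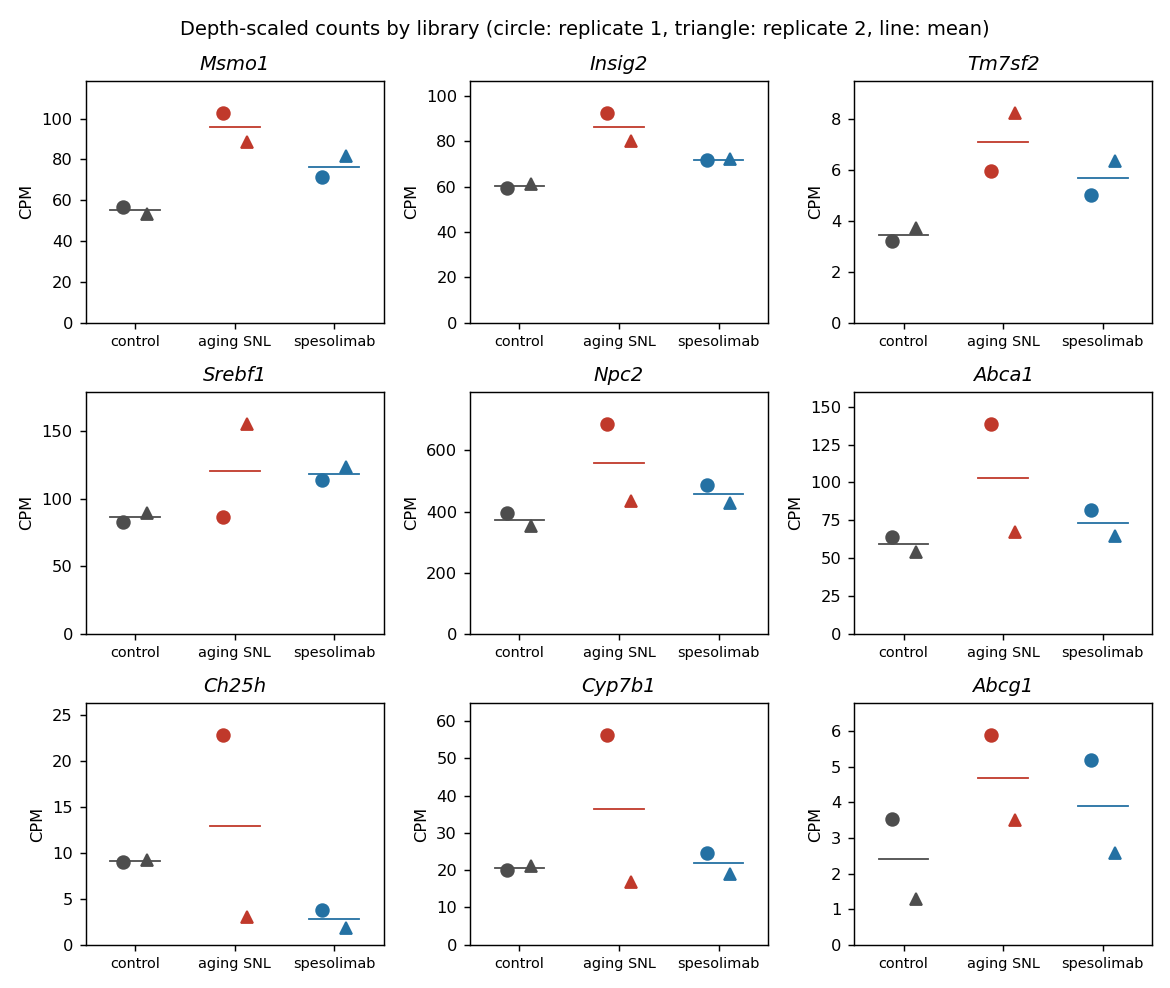
Depth-scaled counts (CPM, linear axes from 0) of 9 members in each library; circles are replicate 1, triangles replicate 2 and lines the group means. Msmo1 and Insig2 separate all 3 groups, whereas Ch25h is at 22.9 CPM in aging SNL replicate 1 and at 3.01 CPM in replicate 2.

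Leaving out either aging SNL library changed which members were called. Without aging SNL replicate 1, edgeR called 3 members higher (Tm7sf2, Msmo1 and Srebf1) and 0 lower, where 1.81% of all genes were called higher and 1.61% lower. Without aging SNL replicate 2, it called 10 members higher (30.3% of them) and 0 lower, where 13.4% of all genes were called higher and 12.3% lower. In the latter fit 13 of the 15 chondrocyte markers were also called lower, and their part in the members' calls was not tested. Msmo1 was the 1 member called in both fits. The 10 genes were Fdft1, Msmo1, Hsd17b7, Insig1, Insig2, Npc1, Npc2, Abca1, Ch25h and Cyp7b1. The 14 synthesis enzymes above control were above it in either aging SNL library, while Ch25h and Cyp7b1 were above it in replicate 1 alone.

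Spesolimab with aging SNL was compared with aging SNL to see how the sterol genes stood with the antibody under that condition. Whether the receptor was blocked in these cells was not measured here. Relative to aging SNL, both spesolimab libraries were lower without overlap for 9 members (27.3%), where 13.4% of all genes were, and higher for 0 members, where 13.5% of all genes were. The 9 genes were Mvk, Pmvk, Fdft1, Msmo1, Sc5d, Insig1, Insig2, Nr1h2 and Nr1h3. On the TPM scale the count was 4 (Msmo1, Insig1, Insig2 and Nr1h3), where 5.04% of all genes were lower and 22.9% higher. The median log2 fold change of the members was -0.15, and that of all genes was -0.01. In 6 libraries edgeR called 0 members, with 0% of all genes called in either direction. DESeq2 also called 0 members, with 0.0224% of all genes called higher and 0% lower, and limma called 0. At an unadjusted p under 0.05, 2 members were lower, where 1.49% of all genes were, and 0 were higher, where 1.44% were. These were Msmo1 (log2 fold change -0.32 ± 0.12, edgeR adjusted p = 0.956) and Insig2 (-0.27 ± 0.10, adjusted p = 0.956). Ch25h had the largest difference, -2.20 ± 0.94 (adjusted p = 0.956), between groups that lay at 22.9 and 3.01 CPM and at 3.74 and 1.88 CPM.

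Here, too, the calls rested on the aging SNL library used. The size of the differences also varied with the spesolimab library. The members' median log2 fold change was -0.08 without spesolimab replicate 1 and -0.21 without replicate 2. Relative to the control mean, the mevalonate, squalene and post-lanosterol enzymes had median log2 levels of 0.002, 0.085 and 0.065 in spesolimab replicate 1. In replicate 2 these were 0.21, 0.32 and 0.29. The efflux and LXR genes (0.39, then 0.15) and the oxysterol enzymes (-0.50, then -1.15) went the other way. Without aging SNL replicate 2, edgeR called 8 members lower with spesolimab, where 10.9% of all genes were called lower. It called 1 member higher, where 9.59% of all genes were called higher. In the same fit 14 of the 15 chondrocyte markers were called higher with spesolimab, and their part in the members' calls was not tested. The 8 were Msmo1, Hsd17b7, Insig1, Insig2, Npc2, Abca1, Ch25h and Cyp7b1, and the 1 was Srebf1. The largest of these falls was that of Ch25h, at -3.02 ± 0.29 (adjusted p = 0.00129), and the next that of Cyp7b1, at -1.36 ± 0.15 (adjusted p = 0.00187). The others were Msmo1 (-0.43 ± 0.11, adjusted p = 0.0351), Hsd17b7 (-0.45 ± 0.12, adjusted p = 0.0393), Insig1 (-0.43 ± 0.12, adjusted p = 0.0486), Insig2 (-0.36 ± 0.08, adjusted p = 0.0259), Npc2 (-0.58 ± 0.13, adjusted p = 0.0221) and Abca1 (-0.92 ± 0.15, adjusted p = 0.009). Srebf1 was 0.47 ± 0.10 higher in that fit (adjusted p = 0.0227) and -0.03 ± 0.28 different in 6 libraries. Without aging SNL replicate 1, 0 members and 0% of all genes were called.

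**Figure D4:**
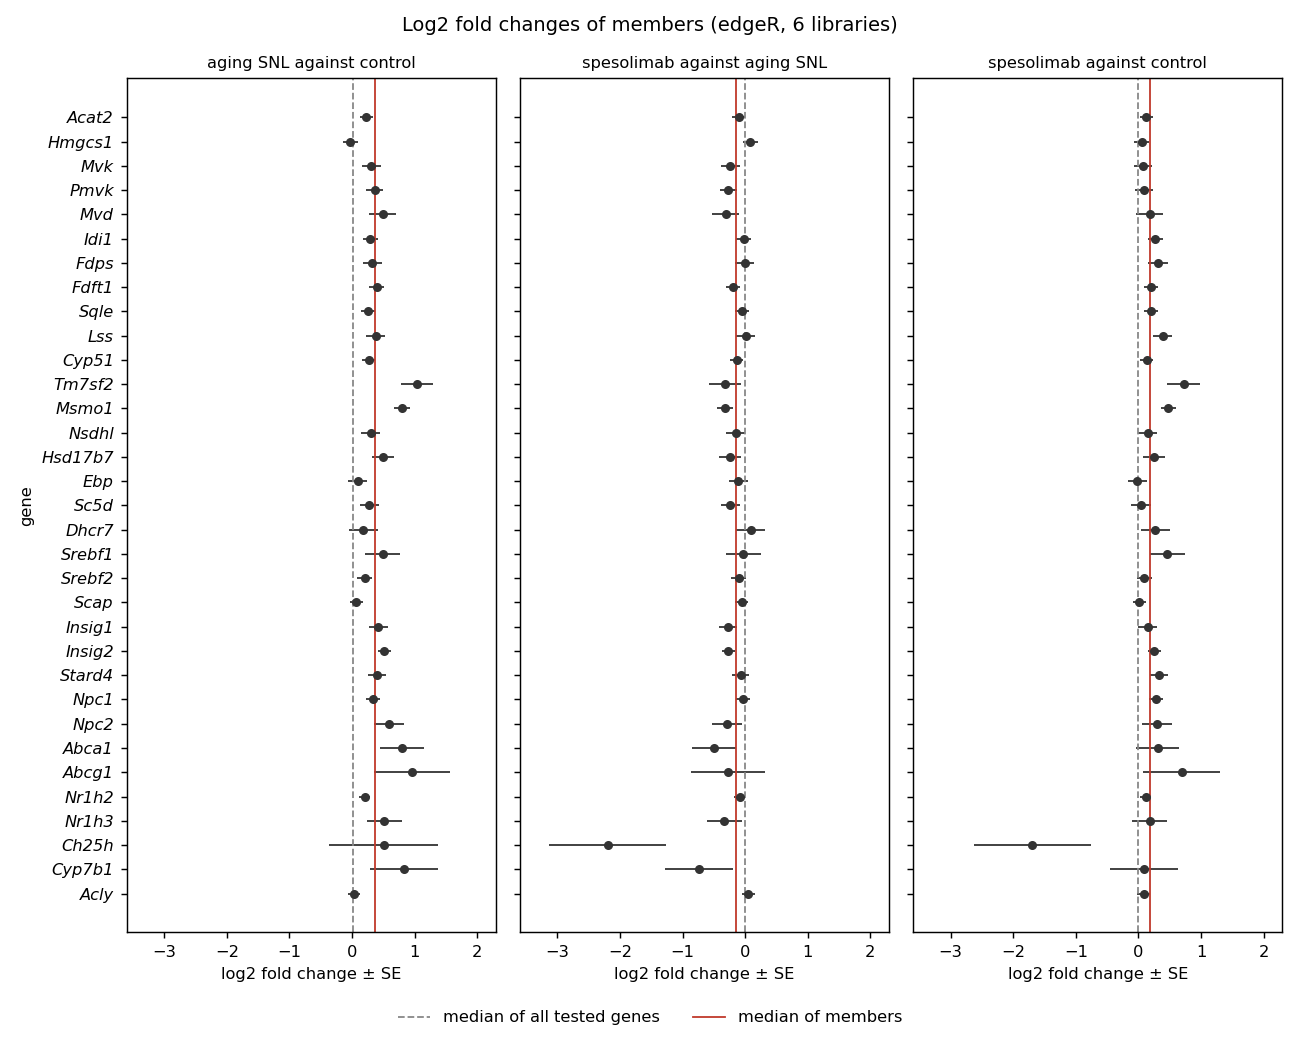
Log2 fold change with its standard error for each member in the 3 comparisons, from edgeR on all 6 libraries; the dashed line is the median of all tested genes and the red line the median of the members. The member medians are 0.36, -0.15 and 0.18, and the errors of Ch25h, Cyp7b1 and Abcg1 are the widest.

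The spesolimab libraries were also compared with control directly, and each of the 3 comparisons shares libraries with the other two. Both spesolimab libraries lay above both controls for 19 members (57.6%), where 23.8% of all genes did, and below for 1 member, Ch25h, where 24.6% did. With library totals unscaled the 19 became 13, where 16.1% of all genes lay above, and on TPM it became 7, where 12.7% did. Among the 18 synthesis enzymes the count was 11. The median log2 fold change of the members was 0.18 and that of all genes 0.00. In 6 libraries edgeR called 0 members and 0% of all genes in either direction. DESeq2 called 0 members, with 0.493% of all genes called higher and 0.702% lower, and limma called 0. At an unadjusted p under 0.05, 4 members were higher, where 3.11% of all genes were, and 0 were lower, where 3.06% were. The 4 were Msmo1 (0.47 ± 0.12, edgeR adjusted p = 0.521), Tm7sf2 (0.72 ± 0.26, adjusted p = 0.752), Npc1 (0.29 ± 0.11, adjusted p = 0.799) and Lss (0.39 ± 0.15, adjusted p = 0.800).

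When only the 4 libraries of these groups were fitted, 3 members passed. Msmo1 rose by 0.47 ± 0.09 (edgeR adjusted p = 0.0464) and Srebf1 by 0.46 ± 0.08 (adjusted p = 0.0385), where 1.51% of all genes were called higher. Ch25h fell, with a log2 fold change of -1.69 ± 0.29 (adjusted p = 0.0368), where 1.37% of all genes were called lower. The same 3 genes were called, with adjusted p between 0.0322 and 0.0490, when either aging SNL library was left out, and the background was then 1.49% or 1.47% higher and 1.34% or 1.33% lower. Those fits are not an independent repeat of the 4-library fit. A lone aging SNL library has its own group mean and adds no spread between replicates. The spread in those fits therefore came from the same 4 libraries of spesolimab and control. With 6 libraries the spread of the aging SNL pair enters the test, and Ch25h then had an adjusted p = 0.948.

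Levels per transcript length were compared on the TPM scale, which adjusts for length. Npc2 had the highest level of the members in control, with a mean of 267 TPM, followed by Acly at 99.7 TPM, Fdps at 84.4 TPM and Msmo1 at 78.1 TPM. The lowest were Abcg1 at 0.93 TPM, Nr1h3 at 3.42 TPM and Tm7sf2 at 6.04 TPM. In aging SNL, Msmo1 reached a mean of 113 TPM and lay above Acly at 86.6 TPM and Fdps at 90.4 TPM. Nr1h2 stood far above Nr1h3 in every library, at 58.5 to 68.2 TPM against 3.09 to 4.13 TPM.

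**Figure D5:**
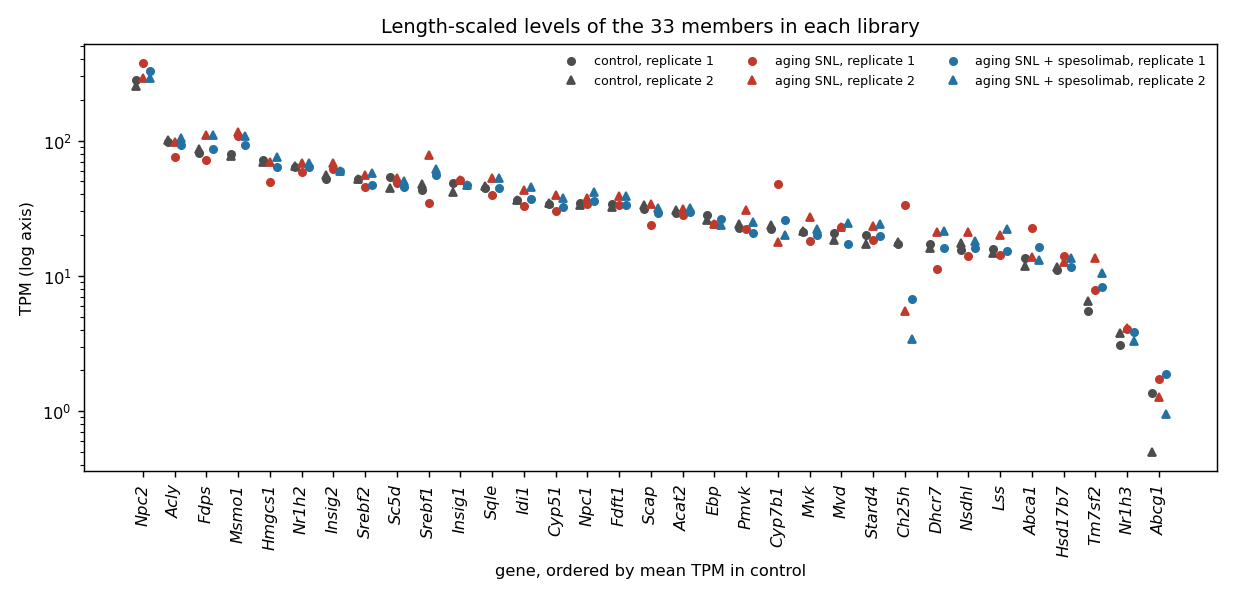
TPM of the 33 members in each library on a log axis, ordered by the control mean; colours are groups, circles replicate 1 and triangles replicate 2. Npc2 is highest at a control mean of 267 TPM and Abcg1 lowest at 0.93 TPM, and Ch25h has the widest spread between libraries.

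Neighbouring lipid genes gave a mixed picture, and edgeR called 0 genes of every list in the 6 libraries. Of 16 tested fatty acid synthesis genes, many of them SREBP targets, 11 were above control without overlap in aging SNL and 1 was below, where 20.9% of all genes were above and 21.1% below, and the median log2 fold change was 0.27. Acss2, which makes acetyl-CoA from acetate, measured 14.0 and 11.7 CPM (control), 20.1 and 19.6 CPM (aging SNL) and 17.1 and 19.7 CPM (spesolimab). Scd2, a fatty acid desaturase, stood at 401 and 411 CPM, then 578 and 670 CPM, then 440 and 576 CPM. Both genes were above control in all 4 libraries of the other groups. Gpam, which starts glycerolipid synthesis, measured 38.5 and 38.5 CPM (control), 52.5 and 48.5 CPM (aging SNL) and 48.3 and 42.1 CPM (spesolimab). Scd1, another desaturase, measured 149 and 88.6 CPM (control), 200.3 and 294 CPM (aging SNL) and 315 and 195 CPM (spesolimab). Of 35 further genes of sterol synthesis, sensing and uptake, 11 were above and 5 below, with a median of 0.09. Acat1, the mitochondrial thiolase that is not part of the cytosolic route, measured 98.7 and 99.9 CPM (control), 76.9 and 79.0 CPM (aging SNL) and 98.4 and 83.9 CPM (spesolimab). Lrp8, a lipoprotein receptor, measured 9.09 and 12.3 CPM (control), 18.2 and 15.4 CPM (aging SNL) and 11.9 and 15.1 CPM (spesolimab). Acat1 lay below control and Lrp8 above it in both aging SNL libraries. Scarb1, the receptor that takes up cholesterol from high-density lipoprotein, measured 66.8 and 67.2 CPM (control), 148 and 76.1 CPM (aging SNL) and 65.8 and 77.5 CPM (spesolimab), highest by far in aging SNL replicate 1.

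The all-gene shares of 20.9% above and 21.1% below also apply to the remaining lists. Of 13 genes of the isoprenoid branches, such as prenyl transferases, 4 were above and 3 below control in aging SNL, with a median of -0.06. The 4 with the lowest p were Zmpste24 and Rabggta, each above control in both aging SNL libraries, Ggps1, also above, and Rabggtb, below, with log2 fold changes of 0.19 ± 0.09, 0.33 ± 0.15, 0.13 ± 0.09 and -0.15 ± 0.09. Of 13 LXR target and lipoprotein genes, 4 were above and 1 below, with a median of 0.10. Lpcat3, a phospholipid-remodelling LXR target, measured 43.4 and 42.4 CPM (control), 59.5 and 51.4 CPM (aging SNL) and 54.3 and 52.4 CPM (spesolimab). Smpdl3a, another LXR target, measured 39.8 and 34.1 CPM (control), 42.6 and 43.3 CPM (aging SNL) and 49.5 and 40.2 CPM (spesolimab). Of 7 further oxysterol enzymes and receptors, 2 were above and 2 below, with a median of 0.09. Rora, the nuclear receptor linked with the Ch25h route in mouse cartilage, measured 60.5 and 57.7 CPM (control), 119 and 82.7 CPM (aging SNL) and 69.5 and 75.3 CPM (spesolimab). Unlike Ch25h, Rora was above control in both aging SNL libraries and in both spesolimab libraries (log2 fold change in aging SNL 0.77 ± 0.19, edgeR adjusted p = 0.245). Dhrs9, a short-chain dehydrogenase, measured 40.9 and 36.3 CPM (control), 31.2 and 19.9 CPM (aging SNL) and 35.9 and 31.1 CPM (spesolimab). Cyp39a1, an oxysterol hydroxylase, had a log2 fold change of -0.32 ± 0.13 in aging SNL, and Hsd3b7, which acts on hydroxylated sterols in bile acid synthesis, one of 0.21 ± 0.10. Dhrs9 and Cyp39a1 were below control in both aging SNL libraries, and Hsd3b7 was above.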

How the data were processed

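Gene levels were read from the authors' deposited table. Its expected counts, deposited as unscaled values per the file headers, were not whole in 12.3% of cells. Its TPM values, which the authors had adjusted for length and depth per the file headers, served as a check. The submitters' processing notes name RSEM 1.3.1, Bowtie2 2.3.4.3, DESeq2 1.4.5 and the build GRCm39, with no step given. No source used here gave the annotation or strandedness. The 9 columns of group averages were not used.

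Counts were rounded, filtered by filterByExpr (minimum count 10, minimum total 15; 13399 genes kept), scaled by TMM and fitted with edgeR 4.0.16 in R 4.3.3 to all 6 libraries, 1 mean per group with 3 residual degrees of freedom. Benjamini-Hochberg adjustment ran over all tested genes, with a threshold of 0.05. Standard errors are the size of the log2 fold change over the square root of the quasi-likelihood F. CPM uses TMM-scaled library sizes. DESeq2 1.42.0 and limma 3.58.1 (log2(TPM + 1), mean of at least 1 TPM) were alternatives, and each library was left out in turn. The scripts were tested on simulated data. Replicates of each group differed by more than counting noise (chi-square per degree of freedom 13.6, 238 and 17.6), so none was taken as a repeat of the same library.

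All 33 members are named with their levels, and the statistics are given for those called in any edgeR fit or among the 3 lowest p in a comparison. From each other list the 4 genes with the lowest p in aging SNL were taken, and not every gene that this picked is reported here. The members and lists were chosen with earlier results of these data known. Groups that do not overlap were counted on CPM; this measure was added after the data were seen.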

Additional observations from a re-analysis of the deposited data

How the results depend on the processing

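In the 6 libraries edgeR and limma called 0 members under other library scaling, without the count filter, on TPM or with the replicate block. The 2 replicate numbers are shared by all groups, and the deviations of same-numbered libraries correlated at 0.25 to 0.42 across genes, but the labels tie the number to no batch or animal. With the replicate block edgeR called 0 genes and 0 members in each comparison. DESeq2 called 445, 3 and 160 genes in aging SNL against control, spesolimab against aging SNL and spesolimab against control, and 2, 0 and 0 members. In the 4 libraries of spesolimab and control edgeR called 382 genes and 3 members. Leaving out 1 library gave 0 to 3525 genes and 0 to 10 members in the first comparison, 0 to 2810 genes and 0 to 9 members in the second, and 0 to 385 genes and 0 to 3 members in the third. All calls above 0 came from leaving out an aging SNL library. In those fits the spread between the aging SNL libraries no longer enters the test, and any further cause was not tested.

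On TPM the member medians moved to 0.0817, 0.00162 and 0.0717 (log2(TPM + 1), with or without the filter) and to 0.0838, 0.00306 and 0.0741 (log2(TPM + 0.1)), while the medians of all genes were -0.22, 0.14 and -0.08 with the filter and a pseudocount of 1. Members without overlap, counted on TPM, numbered 9 above and 3 below control in aging SNL, 4 below aging SNL with spesolimab, and 7 above control with spesolimab. Without 1 library, 26 to 29 members were above and 0 to 2 below control in aging SNL. With spesolimab, 0 to 9 were above and 14 to 23 below aging SNL, and 22 to 27 were above and 1 to 4 below control. Fewer libraries have to be separated in these counts. Of all genes, 28.7% to 42.7% were then above and 29.0% to 44.3% below in the first comparison. In the second, 23.6% to 42.7% were above and 24.3% to 41.6% below. In the third, 36.2% to 38.1% were above and 36.1% to 38.7% below. The log2 fold change of Srebf1 with spesolimab against aging SNL turned to 0.47 without aging SNL replicate 2, and leaving out 1 library gave -0.39 to 0.47. Of 1485 values of single members under an alternative, 1378 kept their side of the threshold with the same sign, or changed sign by no more than 1 standard error, 32 were newly called, 74 changed sign by more than 1 standard error without a call, and 1 was the Srebf1 value above. Counts of 23 to 95 per library limit Abcg1, and those of 32 to 64 with spesolimab limit Ch25h.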
